A study of Mus musculus with 5 samples.

Results

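The classical protein tyrosine phosphatases are the 37 mouse genes described here, chosen by name from the 52143 genes of the deposited expression table. Of these, 20 encode receptor-type enzymes that cross the plasma membrane and 17 encode enzymes without a transmembrane segment. Each of the 37 symbols had 1 row in the table. RNA-Seq was performed on colon tumors of 2 Control mice, replicates 1 and 4, and 3 SIGLEC12 mice, replicates 2, 3 and 4. The Control mice were Villin1-Cre-ERT littermates, which carry a tamoxifen-inducible Cre recombinase active in the intestinal epithelium under the villin promoter. The SIGLEC12 mice carried the same recombinase and 1 copy of a human SIGLEC12 knock-in at the ROSA26 locus, where a floxed EGFP and stop sequence keeps the gene off until Cre removes it. Both groups were female, were 8 weeks old at tamoxifen (5 days), and received azoxymethane (AOM), a carcinogen, at 10 mg/kg. Both were then given cycles of dextran sulfate sodium (DSS), an irritant of the colon epithelium, at 2.0% for 5 days with 14 days of recovery, and tumors were taken on day 87. The villin promoter directs recombination to epithelium, and the tumors also hold other cells. The transgene itself was not analysed here, and the genotype was therefore not checked from its expression. A further Control mouse named in the series description was also not analysed here.

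Protein tyrosine phosphatases remove phosphate from tyrosine residues and so work against, or in some cases activate, tyrosine kinases. Each classical member has a catalytic domain with a cysteine that attacks the phosphate and an arginine that holds it, both in a short conserved loop. Siglecs are cell surface lectins, and many carry immunoreceptor tyrosine-based inhibitory motifs in the cytoplasmic tail that, once phosphorylated, bind the tandem SH2 domains of SHP1 and SHP2, the products of Ptpn6 and Ptpn11. The comparison of SIGLEC12 with Control therefore asks at which level these enzymes, and the family around them, were expressed in tumors of either genotype.

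The catalytic loop is the sequence that defines the family, and 8 members are shown to let their coding sequence be compared: 7 that the results below describe one by one, and Ptprn2 as an example of a divergent loop. The stretches run 5′ to 3′ on the coding strand and span 30 bases of the GENCODE M21 coding sequence on GRCm38. Capitals mark the codon of the catalytic cysteine and the codon of the arginine. They cover chr6:124722057-124724964 (minus strand) for Ptpn6, chr5:121143608-121144537 (minus) for Ptpn11, chr1:34470335-34471514 (plus) for Ptpn18, chr5:103593642-103593671 (plus) for Ptpn13, chr4:118212228-118212334 (minus) for Ptprf, chr10:28580540-28585581 (plus) for Ptprk, chr14:12213799-12215209 (plus) for Ptprg and chr12:117253649-117255567 (plus) for Ptprn2. Except in Ptpn13, where it lies inside 1 exon, the stretch crosses an exon junction and its coordinates include the intron.
Ptpn6: catTGCagcgctggcatcggcCGCacgggc
Ptpn11: cacTGCagcgctgggattggcCGGacagga
Ptpn18: cacTGCagtgctggctgcggaCGAacaggt
Ptpn13: cacTGCagcgctggcattggaCGCtcagga
Ptprf: catTGCagtgcgggtgtggggCGCacaggc
Ptprk: cacTGCagtgctggtgctgggCGCacaggc
Ptprg: cacTGCagcgctggtgtgggcAGGacaggc
Ptprn2: catTGCagtgacggcgccggcAGGagtgga

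All 8 stretches used the same cysteine codon, whereas the arginine codon took 4 forms. Ptpn6 and Ptpn11, the SH2 pair, shared 24 of the 30 bases, as many as Ptpn6 shared with Ptpn13. Ptprf and Ptprk shared 26. Ptprn2, a receptor of secretory vesicles known as a member with little or no activity on phosphotyrosine, shared between 17 and 20 with the other 7. A search for the loop, the PTP signature motif, found it in the coding sequence of every member, once in 28 and at 2 places in 9, the latter being receptors with a second, membrane-distal phosphatase domain that keeps the motif. Of 21506 mouse coding sequences searched, 51 (0.237%) held it. The match is a description of the sequence, not a measure of activity.

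The deposited values are log2(TPM + 1), where TPM is the abundance of a transcript per length and relative to all RNA of its sample. Read depth cannot be recovered from TPM, and counting intervals are therefore not given. Of the TPM total, 4 entries annotated as miRNA genes held between 77.2% and 85.9% per sample, so low TPM values do not by themselves mean few transcripts among the protein-coding ones. Protein-coding genes held 5.70% and 6.73% of the TPM in Control and between 8.74% and 9.71% in SIGLEC12. Control replicate 1 stood apart, with 7947 genes at a TPM of at least 1 against between 9532 and 10090 in the other samples. The median log2 difference of all 10338 tested genes, SIGLEC12 minus Control, was 0.38 as deposited, and it was 0.01 after each sample was rescaled to the same protein-coding total. Log2 differences between groups are therefore set beside their value on the rescaled scale or without Control replicate 1. Sums of marker genes and levels of untested members are as deposited unless stated. The epithelial identity of the samples was clear as deposited, since the 10 epithelial markers, among them Epcam and Krt8, summed to between 334 and 1802 TPM.

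The phosphatases were expressed at low to moderate levels. The 37 genes together summed to between 64.4 and 99.4 TPM per sample. Of the 37, 22 had a median of at least 1 TPM, and the 5 most abundant held 37.4% of the summed level. Ptprf, the receptor also known as LAR, which sits at cell junctions, was the most abundant member, with 13.5 and 11.1 TPM in the Control replicates and 13.5, 10.1 and 10.0 in the SIGLEC12 replicates. Ptprk, a receptor that binds its own kind on neighboring cells, came next with a mean over the 5 samples of 6.38 TPM. Ptprj, a receptor that acts on growth factor receptors, followed with 4.69. The neighbors below, from Ptpn3 at 4.55 to Ptprh at 3.51, had ranges over the samples that overlapped. The plot of levels by sample shows that the rank of the members is broadly kept between mice and that Control replicate 1 often lies on the left. It held the lowest value of 17 of the 26 tested members.

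**Figure D1:**
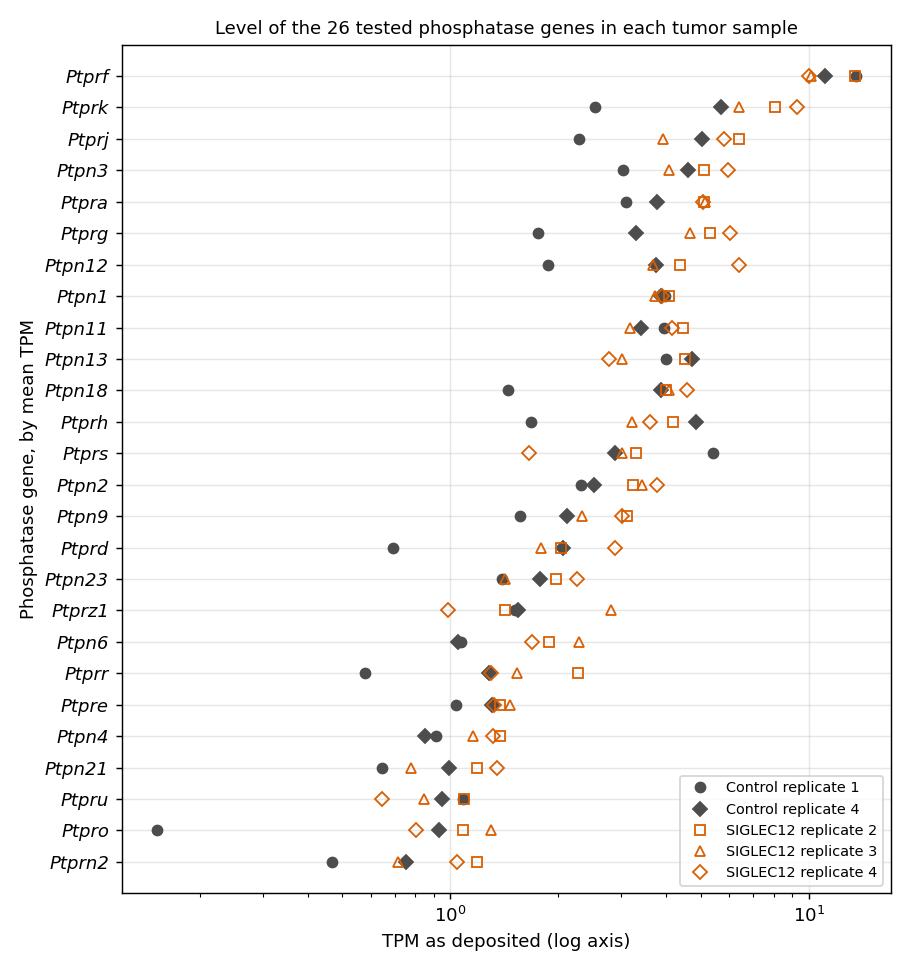
Level of the 26 phosphatase genes that entered the test, in TPM as deposited (log axis), with 1 row per gene ordered by mean and 1 symbol per tumor sample (filled, Control; open, SIGLEC12). Ptprf is highest at 10.0 to 13.5 TPM, and Control replicate 1 holds the lowest value of 17 genes.

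The test, limma on log2(TPM + 1) over the whole table, took in genes that reached 1 TPM in 2 or more samples. This held for 26 members, 14 receptors and 12 non-receptor enzymes, and 4 of them (Ptpro, Ptprn2, Ptpn4 and Ptpn21) passed only through the SIGLEC12 samples. None of the 26 reached an adjusted p under 0.05 or, at the pseudocount of 1, a 2-fold difference, where 0.0% of all tested genes met both and 5.44% differed by 2-fold. With an unadjusted p of up to 0.05 and 2-fold, 0 members passed beside 4.41% of all tested genes, and after rescaling or without Control replicate 1 again 0, beside 1.74% and 2.53%. A 2-fold difference alone was met by 0 members in those settings, beside 3.09% and 3.6%. With a pseudocount of 0.1, 3 members passed 2-fold (15.9% of all tested genes), namely Ptpro (log2 difference 1.17), Ptprg (1.10) and Ptprk (1.02), and the latter 2 also had an unadjusted p under 0.05 (11%). At an unadjusted p under 0.05, 5 members were higher in SIGLEC12 (Ptprg, Ptpn6, Ptpra, Ptprk and Ptpn2), beside 33.4% of all tested genes, and 0 were lower, beside 0.909%. The fold change was above 0 for 21 of the 26, beside 87.2% of all tested genes. The groups did not overlap for 10 members (55.8% of all tested genes), of which 10 were higher in SIGLEC12 (54.1%) and 0 lower (1.67%). Without Control replicate 1, 22 members lay above 0 (79.4% of all tested genes), 2 were higher at an unadjusted p under 0.05 (13.9%) and 0 were lower (1.86%). The median log2 difference of the 26 was 0.31, with 0.38 for the receptors and 0.31 for the non-receptor enzymes, and so lay near or under the median of all tested genes. Over all 37 members irrespective of the filter, 29 had a higher and 7 a lower mean log2 level in SIGLEC12, with a median difference of 0.21. After rescaling, 18 of the 37 were higher and 18 lower, with a median difference of 0. The share over all genes irrespective of the filter is not given, so these counts are not read as particular to the members.

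Rescaling to the protein-coding total moved the family to both sides of 0. The median of the 26 tested members became -0.014, and 12 lay above 0, beside 51.1% of all tested genes. No member was higher at an unadjusted p under 0.05 (4.46% of all tested genes were), and 4 were lower, namely Ptpn13, Ptpn1, Ptprf and Ptprs (6.28% were). The groups did not overlap for 9 members (32.5% of all tested genes), with 1 higher (15.7%) and 8 lower (16.8%). The smallest adjusted p of a member was 0.456 in limma. Of the 26, 12 were above 0 on both scales, 5 were below 0 on both, and 9 were above 0 as deposited and below 0 after rescaling. In every alternative in which they were tested, 3 members stayed higher (Ptprg, Ptprk and Ptpn6) and 3 stayed lower (Ptprs, Ptpru and Ptpn13). The difference of Ptprk fell to 0.022 rescaled without Control replicate 1, and that of Ptpru was -0.037 without SIGLEC12 replicate 4. The shares of all tested genes that kept their direction over both scales or over all alternatives are not given, so these counts are not read as particular to the members. The plot of differences on both scales gives the 26 in order.

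**Figure D2:**
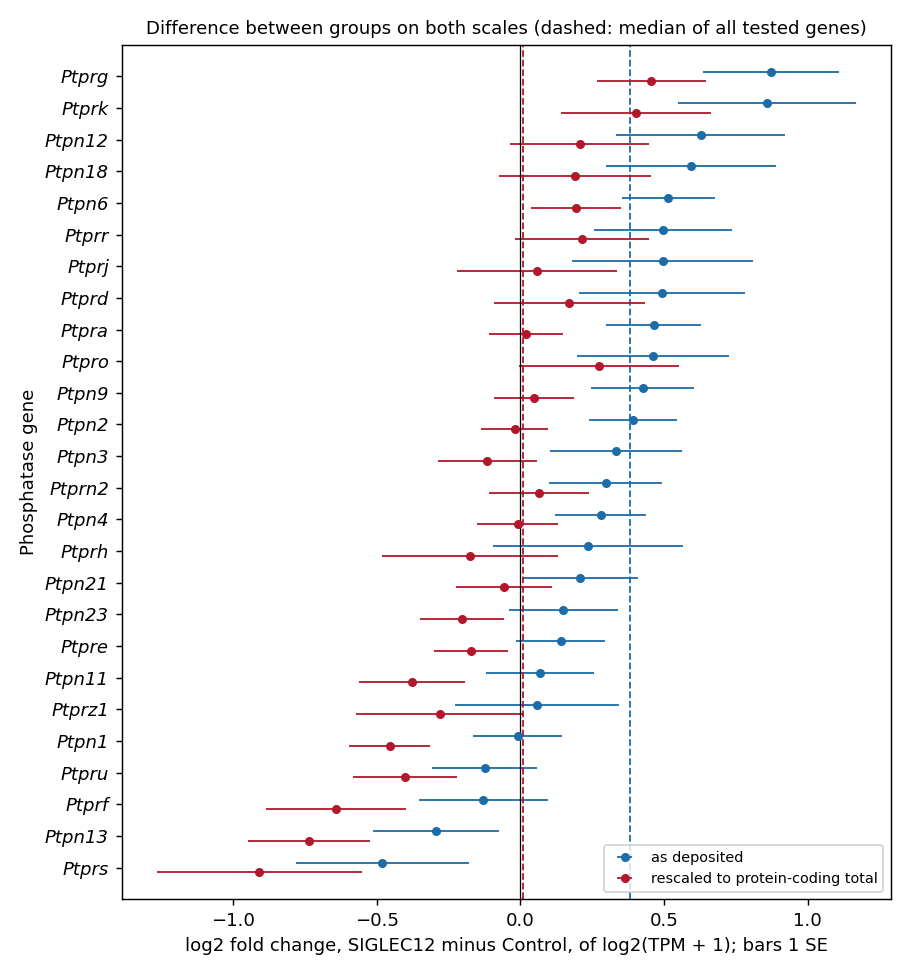
Difference between the groups for each of the 26 tested phosphatase genes, SIGLEC12 minus Control in log2(TPM + 1), with 1 standard error from limma; blue is as deposited, red is rescaled to equal protein-coding totals. The dashed lines at 0.38 and 0.01 are the medians of all tested genes. Rescaling raises both Control samples and lowers all SIGLEC12 samples, so every member, like any expressed gene, shifts toward lower values.

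SHP1 and SHP2 bind the phosphorylated tails of Siglecs and are taken first. Ptpn6 (chr6:124720707-124738714) encodes SHP1, which is abundant in blood cells and present at lower levels in epithelium. Its level was 1.07 and 1.05 TPM in the Control replicates and 1.89, 2.29 and 1.69 TPM in the SIGLEC12 replicates. All 3 SIGLEC12 samples lay above both Control samples. On the log2 scale this was 1.04 ± 0.01 (SD, n = 2) against 1.56 ± 0.15 (SD, n = 3), a difference of 0.51 with a standard error of 0.16 and an adjusted p of 0.103 in limma. After rescaling, the values were 1.49 and 1.24 against 1.70, 2.08 and 1.38 TPM, the groups overlapped, and the difference was 0.19. Without Control replicate 1 it was 0.52 as deposited and 0.27 rescaled, above 0 in each case.

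Myeloid cells also express Ptpn6, and in bulk tumors fewer cells of a type cannot be told apart from less RNA per cell. The 12 myeloid markers summed to 18.0 and 10.4 TPM in Control and to 34.4, 41.4 and 13.8 TPM in SIGLEC12. Their highest sum fell in SIGLEC12 replicate 3, the sample with the highest Ptpn6. As deposited, SIGLEC12 replicate 4, with a myeloid sum inside the Control range, held 1.69 TPM of Ptpn6, above both Control samples. After rescaling, its Ptpn6 level of 1.38 TPM lay between Control replicate 4 (1.24) and Control replicate 1 (1.49). Of the list, 10 entered the test and 1 (Cd14) was higher at an unadjusted p under 0.05, Adgre1 stayed under 0.5 TPM in every sample, and the part of these cells in the Ptpn6 level was not tested.

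Ptpn11 (chr5:121130533-121191397), which encodes SHP2 and promotes signaling from growth factor receptors to the ERK cascade. Its level was 3.96 and 3.41 TPM in Control and 4.45, 3.18 and 4.16 TPM in SIGLEC12, with the groups interleaved. The difference was 0.07 on the log2 scale with a standard error of 0.19 and an adjusted p of 0.794. Rescaled levels were 5.52 and 4.02 against 3.9998, 2.89 and 3.40 TPM, lower in every SIGLEC12 sample by a log2 difference of -0.38 (unadjusted p = 0.0881 in limma). The sign of the Ptpn11 difference thus depended on the scale.

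The ratio of Ptpn6 to Ptpn11 within a sample does not change when a sample is rescaled. It was 0.270 and 0.309 in the Control replicates and 0.425, 0.718 and 0.407 in the SIGLEC12 replicates, so each SIGLEC12 tumor held more Ptpn6 transcript per Ptpn11 transcript than either Control tumor. As log2 ratios the means were -1.79 ± 0.14 (SD, n = 2) for Control and -1.003 ± 0.46 (SD, n = 3) for SIGLEC12, a difference of 0.79. The exact permutation p was 0.1 (two-sided), the smallest that 10 splits of 5 samples allow. Leaving out each sample in turn gave differences between 0.52 and 0.93, the lowest without SIGLEC12 replicate 3. The longest transcripts of the pair differ in length, with 2308 bases for Ptpn6 and 7442 for Ptpn11, and over all tested protein-coding genes shorter transcripts had higher differences, as given below; the part of length in this ratio was not tested.

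Ptpn18 (chr1:34459762-34475733), a member of the PEST group of cytosolic phosphatases known to act on the receptor kinase ERBB2, is the other phosphatase the study discusses. Control replicate 1 had 1.45 TPM and Control replicate 4 had 3.87 TPM, while the SIGLEC12 replicates had 4.01, 4.07 and 4.58 TPM. The groups did not overlap, but Control replicate 4 lay closer to the SIGLEC12 samples than to the other Control sample. The difference was 0.59 with a standard error of 0.30 and an adjusted p of 0.192 in limma. Without Control replicate 1 it was 0.10, and without Control replicate 4 it was 1.09 with an adjusted p of 0.0414. Rescaled levels of 2.02 and 4.57 against 3.601, 3.69 and 3.75 TPM overlapped, with a difference of 0.19. As a share of the summed phosphatase level, Ptpn18 averaged 3.49% ± 1.75 for the 2 Control samples and 4.59% ± 0.48 for the 3 SIGLEC12 samples (mean ± SD, exact permutation p = 0.4). The transcript listed beside Ptpn18 in the table is annotated as a retained intron, and whether the value sums over all its transcripts was not stated.

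**Figure D3:**
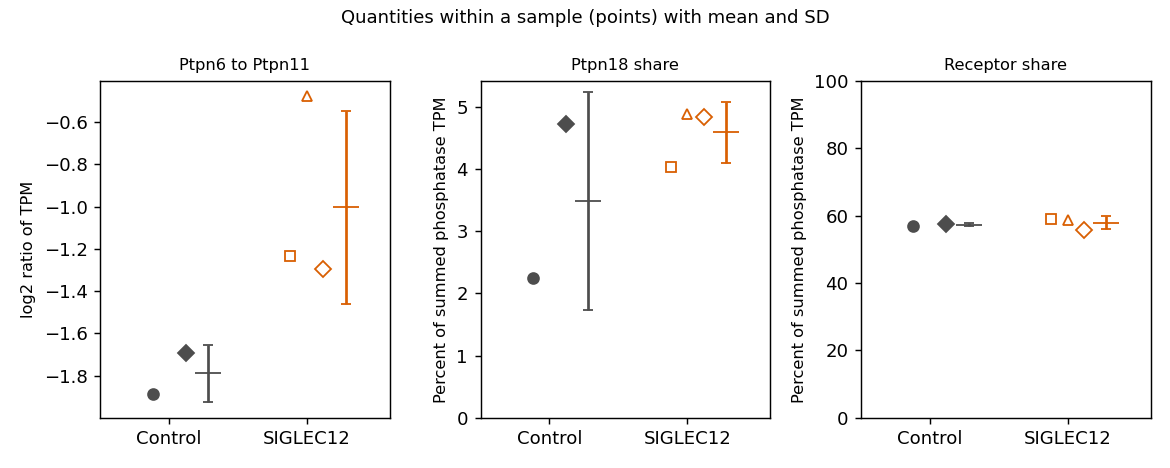
Quantities that do not depend on the scale of a sample, with 1 point per tumor and the mean and SD per group: the log2 ratio of Ptpn6 to Ptpn11 TPM, and the Ptpn18 and the receptor shares of the summed phosphatase TPM in percent. The Ptpn6 to Ptpn11 ratio separates the groups, and Control replicate 1 holds the lowest Ptpn18 share at 2.25%.

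Among the receptors, Ptprg and Ptprk had the largest differences of the 26 tested members at the pseudocount of 1. Ptprg, a receptor with an extracellular part that resembles carbonic anhydrase, had 1.75 and 3.31 TPM in Control and 5.31, 4.66 and 6.03 TPM in SIGLEC12. The groups did not overlap, and the log2 difference was 0.87 with a standard error of 0.24 (unadjusted p = 0.00902, adjusted p = 0.0974 in limma). Ptprg was also the 1 member that stayed higher without overlap after rescaling, at 2.44 and 3.90 against 4.77, 4.23 and 4.94 rescaled TPM, a difference of 0.46 (unadjusted p = 0.0534). Without Control replicate 1 the difference was 0.55 as deposited and 0.20 rescaled. Its sign was the same in each case, and its size was not.

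Ptprk had 2.54 and 5.69 TPM in Control and 8.05, 6.38 and 9.26 TPM in SIGLEC12. All SIGLEC12 samples were above both Control samples, by a log2 difference of 0.86 with a standard error of 0.31 and an adjusted p of 0.118. Rescaled, the groups overlapped and the difference was 0.40. Leaving out Control replicate 1 left 0.40 as deposited and 0.02 rescaled. Without Control replicate 4 it was 1.32 with an adjusted p of 0.0421, and that of Ptprg was 1.20 with an adjusted p of 0.0414. With Ptpn18 these were the only members called at an adjusted p under 0.05 in any setting run, each time against Control replicate 1 alone, a lone sample assumed to vary like the others.

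Ptpra and Ptpre are receptors with short extracellular parts that can activate Src family kinases. Ptpra was at 3.09 and 3.78 TPM in Control and at 5.11, 5.13 and 5.06 TPM in SIGLEC12. The groups did not overlap and the SIGLEC12 tumors were nearly equal, with a log2 difference of 0.46, a standard error of 0.16 and an adjusted p of 0.116. After rescaling the difference was 0.02, and the rescaled groups overlapped. Ptpre lay between 1.04 and 1.47 TPM in all samples, with a difference of 0.14 as deposited and -0.17 rescaled.

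The LAR family, adhesion receptors that also organize synapses, included the lowest difference of the 26, that of Ptprs. This receptor had 5.41 and 2.89 TPM in Control and 3.29, 3.02 and 1.66 TPM in SIGLEC12. The groups overlapped, with Control replicate 1 highest, and the log2 difference was -0.48 with a standard error of 0.30 and an adjusted p of 0.272. Rescaled levels of 7.55 and 3.41 against 2.96, 2.75 and 1.36 TPM did not overlap, with a difference of -0.91 (unadjusted p = 0.0453 in limma) that was -0.43 without Control replicate 1. Ptprf, whose TPM values are given above, differed by -0.13 with a standard error of 0.22 as deposited. On the rescaled scale its levels were 18.9 and 13.1 against 12.1, 9.22 and 8.21 TPM and the difference was -0.64 (unadjusted p = 0.0403). Its share of the summed phosphatase level was 20.99% and 13.6% in the Control replicates and 13.6%, 12.2% and 10.6% in the SIGLEC12 replicates. The SIGLEC12 mean differed from Control by -5.16 percentage points, and by -1.45 points when Control replicate 1 was left out, a library that thus decided the size of this gap. Ptprd, the remaining LAR member, was low in Control replicate 1 at 0.691 TPM, between 1.79 and 2.88 TPM in the other 4 samples, and its difference of 0.49 was 0.17 rescaled and 0.06 without Control replicate 1.

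Ptpru, a relative of Ptprk, was at 1.09 and 0.951 TPM in Control and at 1.09, 0.847 and 0.643 TPM in SIGLEC12, a difference of -0.12 as deposited and -0.40 rescaled. Ptprj, Ptprh and Ptpro, receptors with a single catalytic domain and fibronectin repeats, varied widely between the 2 Control samples. Ptprj had 2.28 and 5.05 TPM in Control and between 3.93 and 6.39 TPM in SIGLEC12, a difference of 0.50 that was 0.06 rescaled and 0.05 without Control replicate 1. Ptprh, an enzyme of intestinal microvilli, had 1.68 and 4.84 TPM in Control and between 3.21 and 4.20 TPM in SIGLEC12, and its difference of 0.23 became -0.17 rescaled and -0.33 without Control replicate 1. Ptpro ranged from 0.804 to 1.30 TPM over the SIGLEC12 samples and stood at 0.931 TPM in Control replicate 4, but at 0.152 TPM in Control replicate 1, and its difference of 0.46 was 0.27 rescaled and 0.09 without that library. The values of Control replicate 4 lay inside or above the SIGLEC12 range for all 3 of these receptors. Ptprz1, Ptprr and Ptprn2 were each below 3 TPM everywhere, with differences of 0.06, 0.50 and 0.30 as deposited, -0.28, 0.21 and 0.06 rescaled, and 0.05, 0.23 and 0.17 without Control replicate 1. Ptprr, which binds and dephosphorylates ERK and p38 kinases, did not overlap between the groups (0.577 and 1.28 against 1.30 to 2.27 TPM), although by a narrow margin.

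Of the non-receptor enzymes, the Ptpn1 and Ptpn2 pair differed from each other. Ptpn1, a negative regulator of insulin and leptin receptor signaling, was at 3.99 and 3.87 TPM in Control and at 4.09, 3.72 and 3.90 TPM in SIGLEC12. It had the difference nearest to 0 of the 26 tested members, -0.01 with a standard error of 0.15 and an adjusted p of 0.967. Rescaled, the levels were 5.56 and 4.57 against 3.67, 3.38 and 3.19 TPM, without overlap, and the difference was -0.46 (unadjusted p = 0.0191 in limma). Ptpn2, which dephosphorylates JAK and STAT proteins, was at 2.31 and 2.51 TPM in Control and at 3.24, 3.43 and 3.77 TPM in SIGLEC12. Its groups did not overlap, the difference was 0.39 with a standard error of 0.15 and an adjusted p of 0.131, and after rescaling it was -0.02. Whether the differences of Ptpn1 and Ptpn2 differ from each other was not tested.

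Ptpn13, a large scaffold phosphatase with several PDZ domains, was lower in SIGLEC12 on both scales. It had 4.01 and 4.73 TPM in Control and 4.53, 3.01 and 2.77 TPM in SIGLEC12, so the groups overlapped through SIGLEC12 replicate 2. The log2 difference was -0.29 with a standard error of 0.22 and an adjusted p of 0.340. Rescaled levels of 5.59 and 5.58 against 4.07, 2.74 and 2.26 TPM did not overlap, and the difference was -0.74 (unadjusted p = 0.0138, adjusted p = 0.456 in limma). The transcript listed beside Ptpn13 is likewise annotated as a retained intron.

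The other tested non-receptor enzymes had differences between 0.15 and 0.63 as deposited. Ptpn12, a regulator of focal adhesions and of cell migration, had 1.88 and 3.74 TPM in Control and between 3.68 and 6.40 TPM in SIGLEC12, a difference of 0.63 that was 0.21 rescaled and 0.27 without Control replicate 1. Ptpn9, which binds phospholipids of secretory vesicles, was higher without overlap, at 1.57 and 2.12 against 2.33 to 3.10 TPM, with a difference of 0.43 as deposited, 0.05 rescaled and 0.29 without Control replicate 1. Ptpn3 and Ptpn4, which join a FERM and a PDZ domain to the phosphatase, differed by 0.33 and 0.28, by -0.12 and -0.0087 after rescaling, and by 0.09 and 0.30 without Control replicate 1. Ptpn21, a FERM phosphatase without a PDZ domain, differed by 0.21, by -0.06 rescaled and by 0.07 without Control replicate 1. Ptpn23, which takes part in endosomal sorting, differed by 0.15, by -0.20 rescaled and by 0.04 without that library.

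The 11 untested members were at low levels. Of these, 10 never exceeded 1 TPM and Ptprt reached 1.05 TPM in 1 sample. Ptprc, which encodes CD45 of all nucleated blood cells, had 0.540 and 0.476 TPM in Control and 0.961, 0.830 and 0.514 TPM in SIGLEC12. All 5 defining T cell markers were under 0.5 TPM in every sample, and Ptpn22, a lymphocyte phosphatase, reached at most 0.376 TPM. Ptprb, the phosphatase of vascular endothelium, had 0.110 and 0.0949 TPM in Control and 0.317, 0.148 and 0.272 TPM in SIGLEC12. Rescaled Ptprb levels of 0.153 and 0.112 against 0.285, 0.135 and 0.223 TPM overlapped. As deposited, the 6 endothelial markers summed to 1.01 and 1.09 TPM in Control and to between 2.00 and 4.77 TPM in SIGLEC12. Kdr, Tie1 and Tek were under 0.5 TPM throughout. The part of endothelial cells in the Ptprb level was not tested. Ptpn14, a FERM enzyme that binds the growth regulator YAP, had 0.937 and 0.813 TPM in Control and 0.839, 0.549 and 0.427 TPM in SIGLEC12. Ptprm reached 0.461 TPM, Ptpn5 0.280, Ptprn 0.204, Ptpn7 0.0801 and Ptprq 0.0149, and Ptpn20 was listed at 0 in every sample. In a fit with no filter, which included 36 members, the 5 with an unadjusted p under 0.05 held none of these 11.

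Summed over all 37 members, the level was 64.4 and 81.9 TPM in Control and 99.4, 83.1 and 94.7 TPM in SIGLEC12. The groups did not overlap, with means of 73.2 ± 12.4 (SD, n = 2) and 92.4 ± 8.39 (SD, n = 3), a ratio of 1.26 (exact permutation p = 0.2). After rescaling, the sums were 89.8 and 96.7 against 89.3, 75.5 and 77.4 TPM, again without overlap but in the opposite order (exact permutation p = 0.2). The receptors averaged 57.3% ± 0.42 of this sum over the 2 Control samples and 57.9% ± 1.87 over the 3 SIGLEC12 samples (mean ± SD), less apart than the SIGLEC12 samples were from each other (exact permutation p = 0.8). Without Ptprf, the most abundant member, the difference in share was 3.82 percentage points in place of 0.58. The share of Ptprf itself differed by -5.16 points, and by -1.45 points without Control replicate 1. The receptor share lay between 55.7% and 59.1% in the 5 tumors, whereas the order of the sums depended on the scale.

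**Figure D4:**
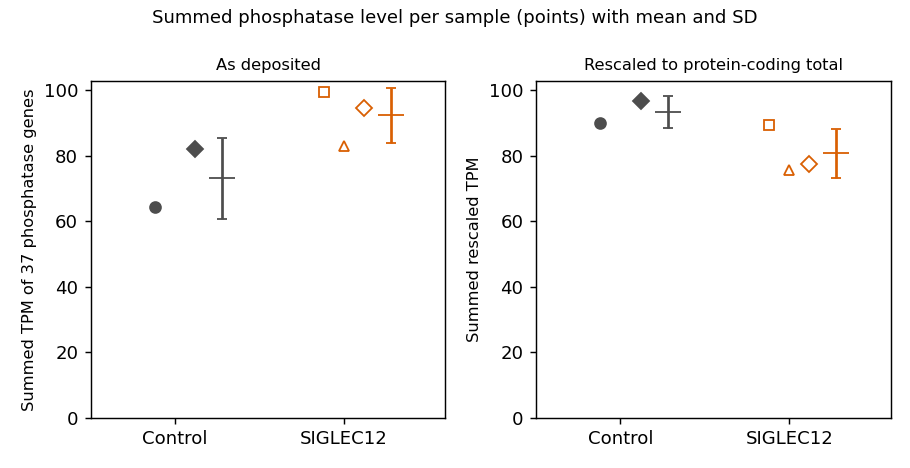
Summed level of the 37 phosphatase genes per tumor (points) with the mean and SD of each group, in TPM as deposited (left) and rescaled to equal protein-coding totals (right); both axes start at 0. SIGLEC12 tumors lie above Control on the left (92.4 against 73.2) and below on the right (80.8 against 93.2).

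Other genes of tyrosine phosphorylation were taken from lists of kinases, adapters and downstream enzymes, and none reached an adjusted p under 0.05. Of 10 Src family kinases and Csk, the substrates and counterparts of Ptpra and SHP1, 5 were tested and 2 were higher at an unadjusted p under 0.05, a threshold that 33.4% of all tested genes met in that direction. These were Yes1 and Lyn. Yes1 had 2.17 and 2.80 TPM in Control and 3.95, 4.56 and 4.39 TPM in SIGLEC12. The log2 differences of Yes1 and Lyn were 0.61 and 0.58 as deposited, and 0.19 and 0.23 rescaled. All listed genes of the ERK cascade were tested. Among them Mapk3, which encodes ERK1, had 12.3 and 19.0 TPM in Control and 30.3, 30.5 and 31.1 TPM in SIGLEC12, a difference of 0.95 (unadjusted p = 0.0075, adjusted p = 0.0974 in limma) that was 0.43 after rescaling. Of 12 docking and adapter proteins, which link SHP2 to receptors, 10 were tested and Shc1 (0.54, rescaled 0.08) and Gab2 (0.49, rescaled 0.26) were higher. Of 12 receptor tyrosine kinases, 10 were tested and Pdgfra (0.85, rescaled 0.69) was higher. Gab2 and Pdgfra passed the filter only through SIGLEC12 samples. Pdgfra is also 1 of the 6 fibroblast markers. As deposited, these summed to 8.71 and 10.5 TPM in Control and to 57.9, 18.0 and 24.4 TPM in SIGLEC12. Among them, Col3a1, Dcn and Pdgfra did not overlap between the groups, and Col1a1, Col1a2 and Lum did. Their part in the Pdgfra level was not tested. No gene passed among the 8 tested of 11 JAK and STAT genes or the 7 tested of 10 MAP kinase phosphatases, and no tested gene of any of these lists was lower at that threshold.

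The medians of these lists were between 0.27 and 0.58 as deposited, beside 0.38 for all tested genes, and between -0.17 and 0.19 rescaled, beside 0.01. On the rescaled values Dusp7, an ERK phosphatase, Stat6, Braf and Ephb3 were lower and Pdgfra was higher at an unadjusted p under 0.05, beside 6.28% and 4.46% of all tested genes. Pdgfra had entered the test only through SIGLEC12 samples. Of 10 mouse Siglecs, 9 were in the table and none was tested, the highest value being 0.486 TPM.

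Epithelial markers were also higher in SIGLEC12 as deposited, with Control replicate 1 the lowest sample. Their sums were not compared on the rescaled scale. They summed to 334 and 970 TPM in Control and to between 1173 and 1802 TPM in SIGLEC12, and 6 of 10 were higher at an unadjusted p under 0.05, beside 33.4% of all tested genes, against 0 of 10 after rescaling (4.46%). Their median log2 difference was 1.18 as deposited, 0.63 rescaled and 0.47 without Control replicate 1. Their part in the phosphatase levels was not tested. Transcript length also varied with the difference. Across 9216 tested protein-coding genes, Spearman's rho between the length of the longest transcript and the log2 difference was -0.41, and across the 26 members it was -0.31, a description over genes, which share the same 5 samples. The members had a median longest transcript of 5590 bases, against 3281 for the tested protein-coding genes.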

How the data were processed

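RNA-Seq of colon tumors was analysed from 1 table in which, per the file headers, each of 5 columns is 1 sample. The authors deposited log2(TPM + 1). The submitters' processing notes name kallisto 0.45.0 and GRCm38, whereas the study's methods name another version and a human reference. The methods also name technical replicate libraries, and whether these were averaged was not stated. The library kit is a stranded total RNA kit in the labels and an mRNA kit in the methods. Of the gene identifiers, 98.29% matched GENCODE M21, the source of the coordinates and sequences. Beside each member the table lists 1 transcript, protein-coding for 27 of 37. It is annotated as a retained intron for Ptpn13, Ptpn18, Ptprc and Ptpro. For Ptprb, Ptprj, Ptprn and Ptprn2 it is a processed transcript, and for Ptpn22 and Ptprh a target of nonsense-mediated decay. Whether the values sum over all transcripts of a gene was not stated.

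Groups came from the treatment labels. Genes with TPM of at least 1 in at least 2 samples (10338) were tested with limma 3.58.1 (lmFit, eBayes with trend, two-sided) in R 4.3.3, with Benjamini-Hochberg adjustment over all of them, after the fit was tested on simulated data. Fold changes are on the log2(TPM + 1) scale, which understates those of low genes. Sums and ratios were compared by exact two-sided permutation over 10 splits, with a smallest p of 0.1. Rescaling set each sample's protein-coding TPM sum to the mean over samples. Other alternatives were quantile and median-ratio scaling, a pseudocount of 0.1, no filter, a filter at TPM 5, sample weights, no trend, and leaving out each sample. Values per sample were given for Ptpn6, Ptpn11, Ptpn18, members with an unadjusted p under 0.05 or a negative difference, and the 3 most abundant; a few further members are given to show a library that stands apart, chosen after their values were seen. Partner genes were named at an unadjusted p under 0.05, except for a result that is not reported here. The members and lists were chosen with earlier results of these data known. The summed levels of the remaining marker lists were, Control then SIGLEC12, 21.0 to 24.7 and 24.2 to 53.1 TPM for neutrophils, 36.1 to 40.4 and 36.6 to 86.6 for smooth muscle, 4.08 to 7.81 and 7.35 to 7.95 for endocrine cells, 0.147 to 0.301 and 0.740 to 1.50 for B and plasma cells, and 0.317 to 2.90 and 0.230 to 0.624 for nerve and glia. Single genes carried some of these sums. In SIGLEC12 replicate 4, Ly6g held 44.8 TPM of the neutrophil sum, with S100a8 at 4.65 and S100a9 at 2.97. Jchain held most of the B and plasma cell sum in SIGLEC12 (0.559 to 1.33 TPM), and the other 5 markers stayed under 0.5 TPM. Tubb3 held 2.79 TPM of the nerve and glia sum of Control replicate 1.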

Additional observations from a re-analysis of the deposited data

How the results depend on the processing

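No paired analysis was made because the labels give no pairing between Control and SIGLEC12 mice. The combination of rescaling with leaving out Control replicate 1 was chosen after seeing the data.

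Over all tested genes, the count at an adjusted p under 0.05 and 2-fold was 0 in limma (3543 had an unadjusted p under 0.05) and between 0 and 1059 on leaving out 1 sample, with 1059 without Control replicate 4 and 1 without SIGLEC12 replicate 4. With 2-fold and an unadjusted p up to 0.05, 456 genes passed, against 180 rescaled, 176 with quantile and 178 with median-ratio scaling, 1140 with a pseudocount of 0.1, 250 rescaled without Control replicate 1, and between 262 (without Control replicate 1) and 1512 (without Control replicate 4) on leaving out 1 sample. Of the phosphatases, 0 were called at an adjusted p under 0.05 and between 0 and 3 on leaving out 1 sample, 3 without Control replicate 4. The count at an unadjusted p under 0.05, in either direction, was 5, against 2 with median-ratio scaling (Ptprg higher and Ptpn13 lower), 2 with the filter at TPM 5, where fewer members are tested, 2 rescaled without Control replicate 1 (Ptprh and Ptpn13, both lower), and between 1 and 13 on leaving out 1 sample: 2 without Control replicate 1, 13 without Control replicate 4, and 1, 3 and 2 without SIGLEC12 replicates 2, 3 and 4. Over all tested genes, that count was 1280 of 10338 with median-ratio scaling and 1765 of 3476 with the filter at TPM 5. It was 2227, 2380 and 2475 without SIGLEC12 replicates 2, 3 and 4. Fits without Control replicate 1 or 4 kept 1 Control sample, so the member counts there are not read as particular to the phosphatases. Without Control replicate 4 the median log2 difference was 0.52 for all tested genes and 0.47 for the members. The members' median of 0.31 became -0.014 rescaled, 0.021 with quantile and 0.049 with median-ratio scaling, 0.50 with the pseudocount of 0.1, 0.48 with the filter at TPM 5, -0.19 rescaled without Control replicate 1, and between 0.091 and 0.47 on leaving out 1 sample, 0.091 without Control replicate 1.

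The difference of summed TPM reversed to -12.5 rescaled and -6.21 with median-ratio scaling for all members, to -6.65 and -3.03 for receptors and to -5.83 and -3.18 for non-receptor enzymes. On leaving out 1 sample the Ptpn18 share differed by between -0.14 and 2.34 percentage points (-0.14 without Control replicate 1) and the receptor share by between -0.031 and 1.66 (-0.031 without SIGLEC12 replicate 2).

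Differences of single members changed sign as follows. Rescaled, they were -0.17 for Ptprh, -0.17 for Ptpre, -0.28 for Ptprz1, -0.020 for Ptpn2, -0.38 for Ptpn11, -0.12 for Ptpn3, -0.0087 for Ptpn4, -0.057 for Ptpn21 and -0.20 for Ptpn23. With quantile scaling, they were -0.15 for Ptprh, -0.13 for Ptpre, -0.23 for Ptprz1, -0.33 for Ptpn11, -0.082 for Ptpn3, -0.054 for Ptpn21 and -0.16 for Ptpn23. Median-ratio scaling gave -0.083 for Ptprh, -0.11 for Ptpre, -0.21 for Ptprz1, -0.30 for Ptpn11, -0.027 for Ptpn3, -0.0033 for Ptpn21 and -0.13 for Ptpn23. Rescaled without Control replicate 1, they were -0.23 for Ptprd, -0.68 for Ptprh, -0.31 for Ptprj, -0.12 for Ptpro, -0.0015 for Ptpra, -0.20 for Ptpre, -0.21 for Ptprz1, -0.023 for Ptprr, -0.032 for Ptprn2, -0.19 for Ptpn11, -0.021 for Ptpn9, -0.084 for Ptpn12, -0.25 for Ptpn18, -0.27 for Ptpn3, -0.15 for Ptpn21 and -0.24 for Ptpn23. On leaving out 1 sample, Ptprf ranged from -0.26 (without Control replicate 4) to 7.9e-05 (without Control replicate 1), Ptprh from -0.33 (without Control replicate 1) to 0.80 (without Control replicate 4), Ptprz1 from -0.21 (without SIGLEC12 replicate 3) to 0.26 (without SIGLEC12 replicate 4), and Ptpn1 from -0.036 (without SIGLEC12 replicate 2) to 0.018 (without SIGLEC12 replicate 3), with 0.0075 without Control replicate 1. Ptpn11 lay lowest at -0.018 without Control replicate 4 and highest at 0.18 without SIGLEC12 replicate 3, with -0.0095 without SIGLEC12 replicate 2. Sample weights gave 0.0079 for Ptpn1. The cause of these changes was not tested. Of the other values for single members, 294 kept their direction and side of the threshold, and 3 came past it.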
